A study of Homo sapiens with 132 samples.

Results

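Interferon-stimulated genes are the antiviral genes that a cell switches on when interferon binds its receptor. The 44 genes described here were chosen by name, as a list of symbols from this response. Each symbol was matched to its Ensembl identifier, and all 44 were found among the 65217 identifiers of the count tables (DDX58 is called RIGI in newer annotations). They were followed through RNA sequencing libraries of 4 established human gastric carcinoma cell lines. MKN1 and Hs746T cells were left untreated or were given EGF (5 ng/ml), the EGFR antibody cetuximab (Cet, 1 μg/ml), EGF+Cet, the HER2 antibody trastuzumab (Tra, 5 μg/ml), the EGFR and HER2 kinase inhibitor afatinib (Afa, 0.5 μM) or Tra+Afa. Of these conditions, NCI-N87 and MKN7 cells had the untreated, Tra, Afa and Tra+Afa groups. Cells were collected 4 h or 24 h after treatment, with 3 replicates for each of the 44 combinations of line, treatment and time. Hs746T cells grew in DMEM and the other lines in RPMI, each with 10% serum, so line and medium cannot be told apart where Hs746T cells are compared with another line. Afatinib was compared with untreated cells and not with cells given its solvent. No interferon was added in any group.

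Type I and type III interferons signal through receptor-bound JAK kinases to a complex that contains STAT2 and IRF9 and binds the interferon-stimulated response element (ISRE) in the promoters of these genes. Type II interferon acts through another promoter element, the gamma-activated site (GAS). The products sense viral RNA, block translation or entry, degrade RNA or modify proteins, and several of them, among them STAT2 and IRF7, feed back on the same pathway. In tumour cells a low level of these genes is often present without added interferon.

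The promoters of 5 members are shown to make this common element visible, from 250 bases before to 50 bases after the annotated start, 5′ to 3′ on the strand of the gene (RefSeq, GRCh38.p14). Capitals mark matches to the ISRE core, searched on both strands as the letters TTTCNNTTTC or GAAANNGAAA. EPSTI1, IFI6 and MX1 rose after afatinib in several lines, and SAMD9L rose without a match in this window. ISG15 carries the element but did not pass the test after afatinib at 24 h in any line. In MKN7 cells ISG15 did pass once the replicate number was added to the model. The windows lie at chr13:42992192-42992491 (minus strand, EPSTI1), chr1:27672143-27672442 (minus strand, IFI6), chr21:41420308-41420607 (plus strand, the first of 3 MX1 promoters), chr1:1013247-1013546 (plus strand, ISG15) and chr7:93148336-93148635 (minus strand, SAMD9L).
EPSTI1: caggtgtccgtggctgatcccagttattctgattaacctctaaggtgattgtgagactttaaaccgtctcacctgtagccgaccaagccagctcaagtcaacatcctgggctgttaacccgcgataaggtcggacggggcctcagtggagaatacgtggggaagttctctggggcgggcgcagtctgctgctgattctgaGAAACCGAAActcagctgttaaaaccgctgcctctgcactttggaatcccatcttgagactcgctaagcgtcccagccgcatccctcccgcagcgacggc
IFI6: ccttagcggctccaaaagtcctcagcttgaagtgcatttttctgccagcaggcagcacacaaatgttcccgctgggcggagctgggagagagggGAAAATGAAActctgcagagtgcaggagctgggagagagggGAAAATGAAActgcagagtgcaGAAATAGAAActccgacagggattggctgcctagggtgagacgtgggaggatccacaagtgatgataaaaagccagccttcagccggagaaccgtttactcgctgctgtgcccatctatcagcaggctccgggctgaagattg
MX1: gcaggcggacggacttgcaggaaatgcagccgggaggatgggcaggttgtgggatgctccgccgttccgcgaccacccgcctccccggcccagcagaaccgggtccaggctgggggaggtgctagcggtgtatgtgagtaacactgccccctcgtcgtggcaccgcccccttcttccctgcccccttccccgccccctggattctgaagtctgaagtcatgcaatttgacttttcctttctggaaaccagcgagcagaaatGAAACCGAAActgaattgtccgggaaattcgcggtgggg
ISG15: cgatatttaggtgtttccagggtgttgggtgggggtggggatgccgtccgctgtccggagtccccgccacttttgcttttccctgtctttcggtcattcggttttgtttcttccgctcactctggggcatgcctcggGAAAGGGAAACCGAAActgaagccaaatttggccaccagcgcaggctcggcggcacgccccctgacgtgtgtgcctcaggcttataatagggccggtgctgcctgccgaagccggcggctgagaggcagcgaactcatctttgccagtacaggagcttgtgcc
SAMD9L: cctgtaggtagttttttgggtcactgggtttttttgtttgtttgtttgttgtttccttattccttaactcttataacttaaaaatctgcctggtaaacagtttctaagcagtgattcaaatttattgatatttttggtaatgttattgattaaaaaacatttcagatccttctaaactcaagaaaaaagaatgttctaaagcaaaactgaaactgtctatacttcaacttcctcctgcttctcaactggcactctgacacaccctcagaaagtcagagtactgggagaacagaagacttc

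The RefSeq table held promoters of 34 of the 44 members, and 23 of these 34 had at least 1 match to the ISRE core. Counted over promoters, the core was found in 27 of 45 member promoters (60%) and in 1255 of 35116 promoters of all genes (3.57%). The GAS core, searched as TTCNNNGAA, was found in 11 of 45 member promoters (24.4%), from 10 members, and in 7.66% of all promoters. The promoter of STAT2 had a match to neither core. Some ISRE matches overlap one another, as in the ISG15 promoter with its 2 matches. Promoters of GBP2, DHX58, IRF7, USP18, IFIT2, IFITM2, OAS2, OASL, MX2 and TRIM22 were not analysed here. These matches describe the letters in the windows only.

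The libraries held between 25832557 and 69434151 counts, with a median of 50725775, and levels are given as CPM (counts per 1e+06 of the library total after TMM scaling). Per 1e+06 of the unscaled total, 3 counts correspond to between 0.0432 and 0.116, which covers counting error only. After removal of genes with few counts, 35 members were tested in NCI-N87, MKN1 and Hs746T cells and 34 in MKN7 cells, where XAF1 was left out. IRF9, IFIT1, IFIT2, IFIT3, IFITM1, OAS2, OAS3 and TRIM22 were listed at 0 in every library, and IFITM3 held 75 counts in all. These 8 genes lie wholly inside the span of another annotated gene. Of the protein-coding genes inside a gene of the same strand, 95.5% were listed at 0, and of those inside a gene of the other strand only, 94.5%, against 4.21% of those without any overlap. A 0 for these members therefore cannot be read as absence of the transcript. IFITM2 has near-identical relatives at the same locus. It held 293620 counts in all, and IFITM1, listed at 0, lies inside its span on the same strand. Whether the IFITM2 counts include reads of these relatives was not tested. Of 7 leukocyte markers, 5 or 6 held counts in each line. The pan-leukocyte marker PTPRC was at most 0.685 CPM in every library and the T-cell marker CD3E at most 0.105 CPM, while CD14 reached 8.96 CPM in MKN1 and ITGAM 13.3 CPM in MKN7 cells. The epithelial markers EPCAM and CDH1 were at 247 and 177 CPM or more in every library of MKN7 and NCI-N87 cells, while CDH1 was at most 6.14 CPM in MKN1 and Hs746T cells. The sum over 5 epithelial markers nevertheless set MKN1 apart from Hs746T cells. In untreated libraries at 24 h it was 16768 to 17959 CPM in MKN1 and 520 to 579 CPM in Hs746T cells. It was 18370 to 21439 CPM in NCI-N87 and 5683 to 6658 CPM in MKN7 cells. VIM, the mesenchymal intermediate filament, reached 16.1 CPM in MKN7 and 15.7 CPM in NCI-N87 libraries of replicate 1, against at most 5.54 CPM in replicates 2 and 3. Without replicate 1 the numbers of members called after afatinib at 24 h were 14 in NCI-N87 and 10 in MKN7 cells, against 12 and 10 with it. In bulk RNA a lower level may mean less RNA per cell or fewer cells with the gene, which cannot be told apart.

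In untreated cells at 24 h, the lines differed in which members they expressed (CPM scaled across all lines). BST2, the tetherin that holds budding virus at the membrane, was at 213, 191 and 197 CPM in the 3 libraries of NCI-N87, at 136, 157 and 120 CPM in MKN1, at 34.3, 45.7 and 55.2 CPM in Hs746T and at 0.361, 0.255 and 0.629 CPM in MKN7 cells. MKN7 cells thus stood below the other lines (log2 difference of MKN1 minus MKN7 8.38 ± 0.40), and the libraries of NCI-N87 lay above those of its neighbour MKN1, although the adjusted p of this difference missed the threshold (adjusted p = 0.0613). IFI27, a mitochondrial protein, was at 136, 140 and 143 CPM in NCI-N87 and at 201, 82.1 and 105 CPM in Hs746T cells. Its level was 2.34, 3.14 and 1.57 CPM in MKN1 and 0.883, 0.334 and 0.477 CPM in MKN7 cells, so both of these lines lay below NCI-N87 and Hs746T cells, which did not differ from each other beyond the spread (adjusted p = 0.799). IFI44L was highest in Hs746T cells, at 57.9, 76.9 and 83.5 CPM, against 6.93, 7.08 and 6.47 CPM in NCI-N87 cells. It was at most 0.442 CPM in every library of MKN1 and MKN7 cells. MX2, a dynamin-like GTPase that acts against retroviruses, showed another order, with 118, 106 and 106 CPM in MKN1, 31.2, 30.3 and 30.2 CPM in MKN7, 11.4, 8.51 and 8.46 CPM in NCI-N87 and 6.42, 1.71 and 1.39 CPM in Hs746T cells. HERC5, the main ligase for ISG15, followed a similar order at 37.9, 32.2 and 39.6 CPM in MKN1, 18.2, 17.8 and 15.7 CPM in MKN7 and 12.2, 11.2 and 14.5 CPM in NCI-N87 cells, and it was below 1 CPM in Hs746T cells at 0.512, 0.365 and 0.386 CPM. OASL, an OAS relative without synthetase activity, was at 82.9, 70.6 and 79.6 CPM in NCI-N87 cells and at most 9.6 CPM in every other library. STAT2 in contrast lay between 35 and 55.4 CPM in all 12 libraries.

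Over all 35 members, 17 differed between untreated MKN1 and MKN7 cells by both criteria used throughout, a log2FC beyond 1 in either direction and an adjusted p below 0.05 (called here), where 40.2% of all genes did. The count was 21 between MKN1 and NCI-N87 (43.7% of all genes), 20 between MKN1 and Hs746T (45.3%), 21 between MKN7 and NCI-N87 (42.3%), 23 between MKN7 and Hs746T (43.9%) and 17 between NCI-N87 and Hs746T cells (46.7%). MKN7 cells had the lower level in 20 of 21 members called against NCI-N87 and in 20 of 23 called against Hs746T cells. Of all genes, 20.9% were called lower and 21.4% higher in MKN7 than in NCI-N87 cells. Against Hs746T cells these shares were 21.4% lower and 22.5% higher. NCI-N87 and Hs746T cells were nearly even, with 9 members higher and 8 lower in NCI-N87 cells (23.5% and 23.2% of all genes).

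**Figure D1:**
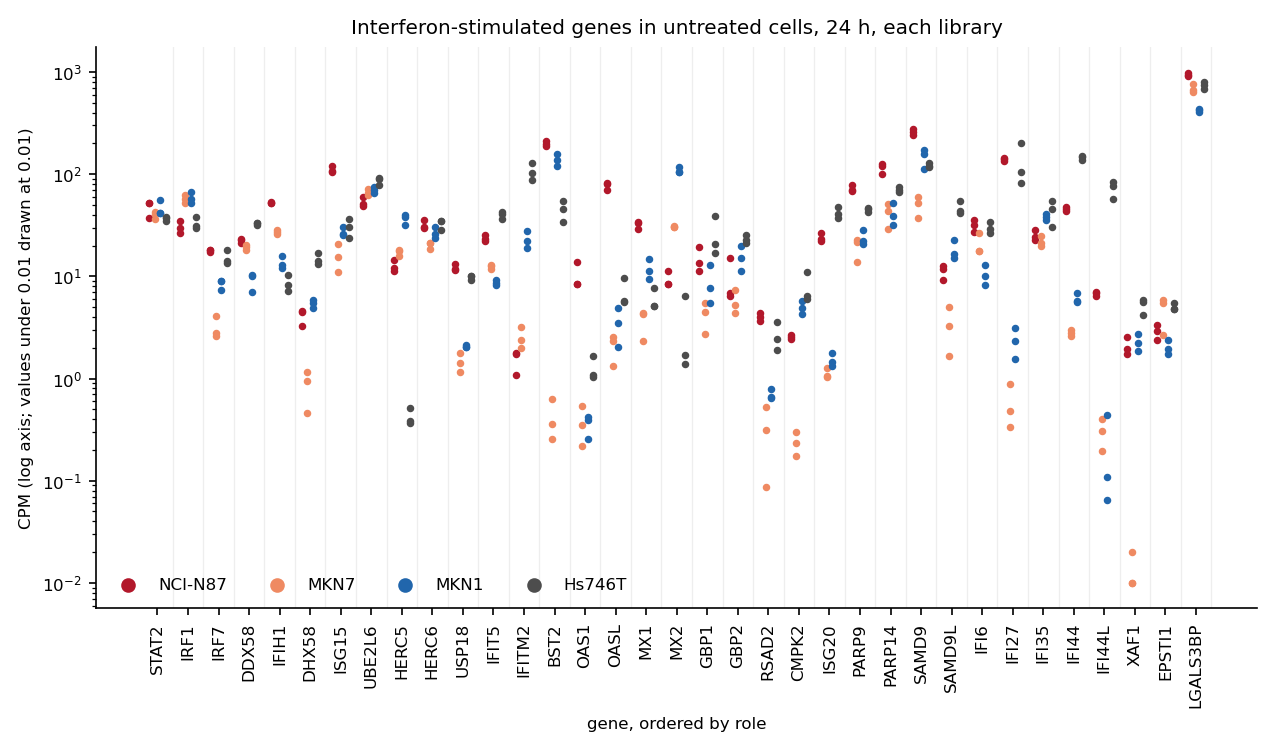
Levels of the members detected in untreated cells at 24 h, in CPM on a log axis (values under 0.01 drawn at 0.01), with 1 point for each of the 3 libraries of a line, colours for lines and the genes ordered by role. BST2, IFI27, IFI44L and XAF1 differ most visibly between lines, with XAF1 at or near the bottom of the axis in MKN7 libraries, while the points of STAT2 lie close together.

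Afatinib for 24 h raised members of most families in NCI-N87 cells, from the transcription factor STAT2 to the GTPase GBP2. Of 35 members tested, 12 were called higher (34.3%, where 18.1% of all genes tested were) and 0 lower (11.5% of all genes), and by adjusted p alone 26 were higher (74.3%, against 31.5% of all genes) and 3 lower (31% of all genes). In edgeR's test 29 members in all had an unadjusted p under 0.05, and DESeq2 called 12 higher and 0 lower. The median log2FC of the members was 0.76, beside 0.032 over all genes. Scaling by library size alone moved the median of all genes to 0.29, and 19 members were then called higher. Replicates are separate libraries by their labels, which do not say whether the cultures were separate, so the p-values measure the spread between these libraries. Cell type markers moved with afatinib too. The summed level of 5 epithelial markers was 18370 to 21439 CPM in untreated and 9622 to 11873 CPM in Afa libraries of NCI-N87 cells. KRT8 had a mean of 11124 and 4291 CPM, KRT18 one of 3252 and 887 CPM and EPCAM one of 511 and 294 CPM. The means of KRT19, 4949 and 5101 CPM, and of CDH1, 268 and 266 CPM, hardly differed. The sum over 7 leukocyte markers was 1.49 to 1.68 CPM and 1.11 to 1.54 CPM, that over 5 mesenchymal markers 259 to 305 CPM and 97.5 to 138 CPM, that over 4 fibroblast markers 13.0 to 19.0 CPM and 24.7 to 26.7 CPM, and that over 3 endothelial markers 1.27 to 1.58 CPM and 2.78 to 3.66 CPM. Their part in the result was not tested. All adjusted p-values below are from edgeR's quasi-likelihood test with Benjamini-Hochberg adjustment over all genes, and each log2FC is given with its SE from 3 libraries a group.

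The 3 transcription factors measured in NCI-N87 cells all passed the adjusted p as higher. STAT2 (ENSG00000170581, chr12:56341597-56360155), a component of the complex that binds the ISRE, was at 53.5, 53.7 and 38.3 CPM in untreated and at 168, 192 and 168 CPM in Afa libraries. The groups did not overlap, and the log2FC was 1.86 ± 0.14 (adjusted p = 2.25e-10). IRF7, the amplifier of interferon alpha production, went from 18.5, 18.7 and 18.1 CPM to 28.7, 33.4 and 31.8 CPM, a log2FC of 0.76 ± 0.12. IRF1, a factor induced mainly by interferon gamma, went from 35.9, 31.1 and 27.6 CPM to 59.5, 49.8 and 53.6 CPM, a log2FC of 0.78 ± 0.18. Both passed the test at less than 2-fold, again without overlap of the libraries. All 3 RNA sensors passed as higher. DHX58, a regulator of the sensors RIG-I and MDA5, was at 4.72, 4.62 and 3.39 CPM in untreated and at 13, 12.9 and 14.8 CPM in Afa libraries, a log2FC of 1.67 ± 0.17, and the sensor MDA5 itself, encoded by IFIH1, had a log2FC of 0.23 ± 0.09.

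The guanylate-binding and dynamin-like GTPases, which attack intracellular pathogens, passed as higher in 4 of 4 genes. GBP2 (ENSG00000162645, chr1:89106132-89150456, partly overlapped by GBP7) was at 15.5, 7.06 and 6.71 CPM in untreated and at 148, 103 and 93.6 CPM in Afa libraries. This was the largest change among the members tested in NCI-N87 cells, with a log2FC of 3.56 ± 0.42 (adjusted p = 2.33e-07), and replicate 1 was the highest library of both groups. MX1 went from 29.8, 34.5 and 35.3 CPM to 49.6, 84 and 73.7 CPM, a log2FC of 1.06 ± 0.20, and MX2 from 11.8, 8.8 and 8.78 CPM to 25.3, 26.7 and 22.8 CPM, a log2FC of 1.35 ± 0.15. In both genes every Afa library lay above every untreated one.

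The 4 PARP and SAMD9 genes passed as higher, as did 7 of the 8 tested genes in the remaining group of other interferon-stimulated genes. XAF1, an antagonist of the caspase inhibitor XIAP, was at 2.03, 2.66 and 1.81 CPM in untreated and at 11.3, 15.2 and 10.4 CPM in Afa libraries, a log2FC of 2.51 ± 0.24. SAMD9L (ENSG00000177409, chr7:93130055-93148369), a restriction factor that lowers translation, was at 13.2, 12.1 and 9.49 CPM and 46, 52.9 and 38.1 CPM, a log2FC of 1.98 ± 0.18. IFI44L was at 7.15, 7.32 and 6.71 CPM and 15.9, 34 and 19.7 CPM, a log2FC of 1.72 ± 0.34. The groups were apart in each of these 3 genes, and the lowest Afa library of IFI44L was replicate 1. EPSTI1 rose from 2.47, 3.05 and 3.46 CPM to 6.62, 10.7 and 8.73 CPM, a log2FC of 1.54 ± 0.29. The remaining members called were IFI6 (log2FC 1.18 ± 0.32), IFITM2 (log2FC 1.15 ± 0.32) and HERC6 (log2FC 1.11 ± 0.10).

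Further members passed the adjusted p in NCI-N87 cells at less than 2-fold. PARP9, of the ADP-ribosyltransferase family, went from 72.6, 81.1 and 71.8 CPM to 105, 143 and 131 CPM (log2FC 0.75 ± 0.11), and its relative PARP14 had a log2FC of 0.70 ± 0.14. SAMD9, the neighbour and relative of SAMD9L, was at 249, 288 and 270 CPM and 346, 406 and 358 CPM (log2FC 0.46 ± 0.12). The groups did not overlap in PARP9 or SAMD9. RIG-I itself, encoded by DDX58, had a log2FC of 0.47 ± 0.13, and UBE2L6, the conjugating enzyme for ISG15, one of 0.61 ± 0.17. RSAD2, which makes a chain-terminating nucleotide, had a log2FC of 0.88 ± 0.16, GBP1 one of 0.88 ± 0.29, IFI44 one of 0.95 ± 0.16, IFI27 one of 0.81 ± 0.20 and IFI35 one of 0.56 ± 0.16. BST2 passed as well (log2FC 0.37 ± 0.16, adjusted p = 0.0415). CMPK2 (0.16 ± 0.22, adjusted p = 0.531), OAS1 (-0.07 ± 0.20, adjusted p = 0.783) and the exonuclease gene ISG20 (-0.18 ± 0.15, adjusted p = 0.293) did not pass.

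A few members of NCI-N87 cells went the other way or did not pass, among them both OAS family members and the IFIT family member that were tested. OASL was at 85.5, 73.1 and 82.6 CPM in untreated and at 40.4, 37.1 and 43.9 CPM in Afa libraries, a log2FC of -0.99 ± 0.12 that stood just short of the fold limit, and without replicate 3 it was called lower. HERC5 went from 12.6, 11.6 and 15.1 CPM to 8.87, 9.42 and 9.71 CPM, a log2FC of -0.49 ± 0.14. IFIT5, an RNA-binding protein of the IFIT family, went from 23, 24.1 and 26.6 CPM to 15.5, 21.1 and 19.2 CPM, a log2FC of -0.40 ± 0.12. These 3 passed as lower. ISG15, the ubiquitin-like modifier after which the HERC5 system is named, had a log2FC of 0.08 ± 0.19 (adjusted p = 0.731), with 109, 111 and 124 CPM in untreated and 101, 123 and 141 CPM in Afa libraries, which overlapped. The protease that removes ISG15, USP18, had a log2FC of -0.24 ± 0.13 (adjusted p = 0.127, and 0.0137 with the replicate number as a block). LGALS3BP, a secreted galectin ligand, had a log2FC of 0.04 ± 0.11 (adjusted p = 0.795).

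**Figure D2:**
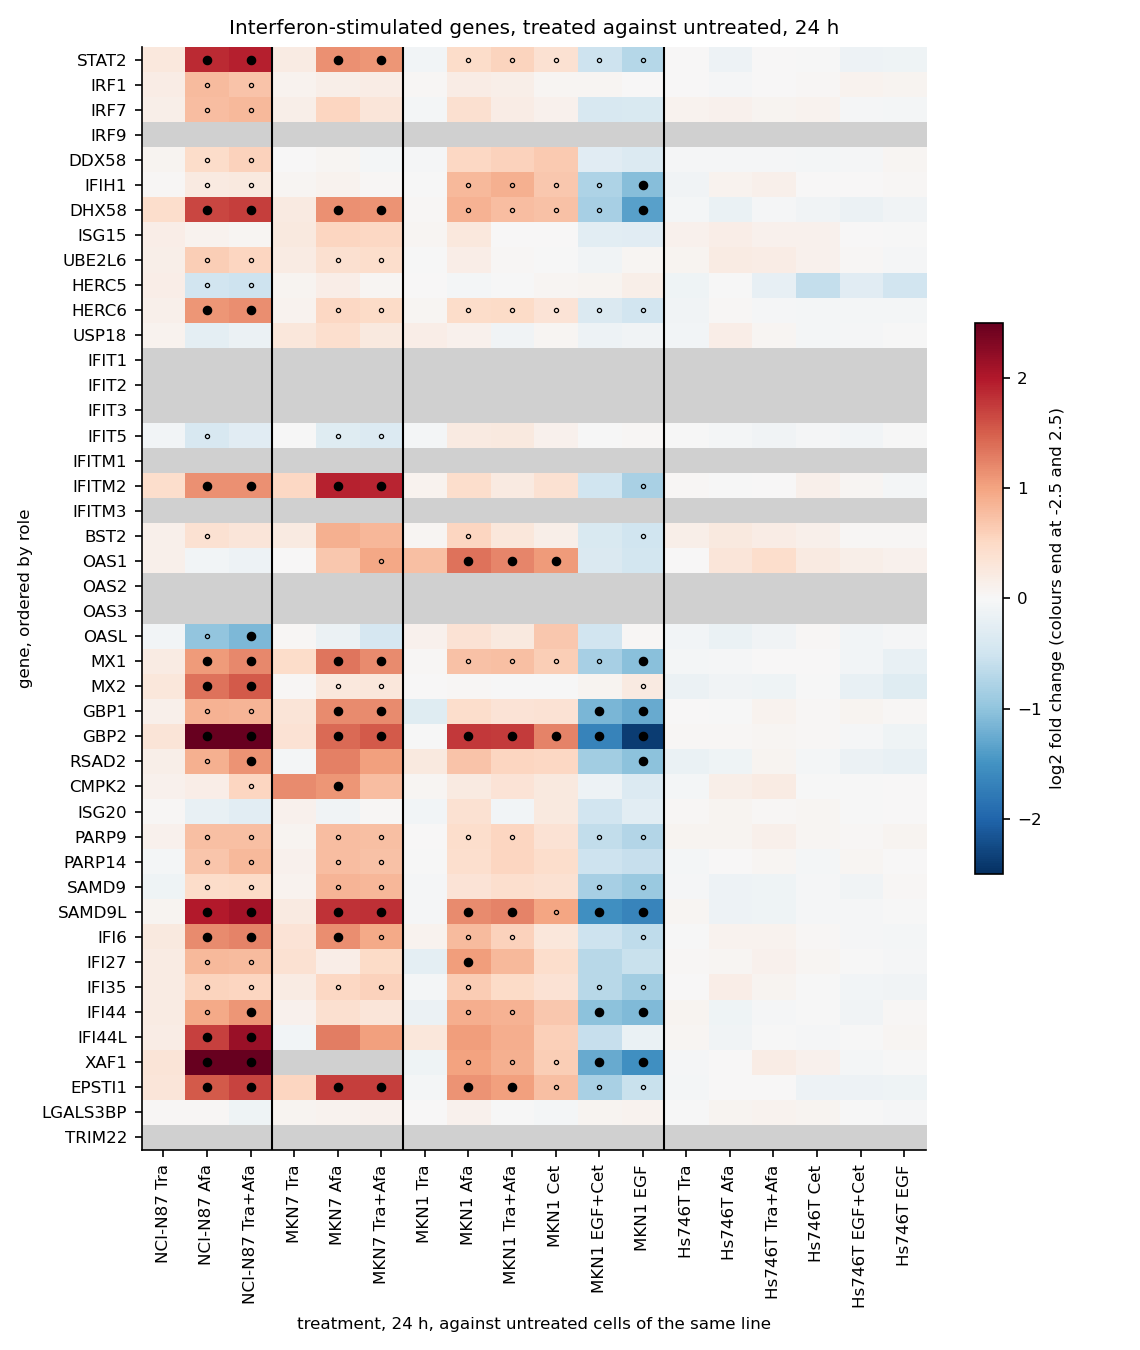
Log2FC of each member against untreated cells of the same line at 24 h, with 1 column per line and treatment, red for higher and blue for lower. Filled circles mark members past both criteria, open circles those past the adjusted p alone, and grey cells genes that were not tested. The Afa columns of NCI-N87, MKN7 and MKN1 are mostly red, the EGF column of MKN1 is mostly blue, and the Hs746T columns hold no circle.

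In MKN7 cells afatinib for 24 h raised 10 of 34 members by both criteria (29.4%, against 10.3% of all genes), and 0 were called lower (3.25% of all genes). By adjusted p alone 17 were higher (50%, against 26.6% of all genes) and 1 lower (25% of all genes), and the median log2FC was 0.60 beside 0.043 over all genes. In edgeR's test 20 members in all had an unadjusted p under 0.05, and DESeq2 called 10 higher and 0 lower. All 4 GTPases and all 4 PARP and SAMD9 genes passed as higher, against 1 of the 3 transcription factors and 1 of the 3 RNA sensors. Scaling by library size alone moved the median of all genes to 0.16. In MKN7 cells the epithelial markers summed to 5683 to 6658 CPM in untreated and 4079 to 4858 CPM in Afa libraries, and the leukocyte markers to 4.43 to 6.06 CPM and 9.44 to 14.2 CPM, mostly ITGAM, with means of 4.41 and 10.6 CPM. The mesenchymal markers summed to 466 to 708 CPM and 687 to 914 CPM, ranges that overlapped. Among them SPARC had a mean of 124 and 277 CPM, and FN1 one of 470 and 541 CPM with overlapping libraries. The means of VIM were 5.11 and 5.58 CPM, of ZEB1 2.43 and 2.10 CPM and of CDH2 0.729 and 0.583 CPM. The fibroblast markers summed to 14.4 to 19.5 CPM and 20.1 to 24.96 CPM, and the part of all these markers in the result was not tested. IFITM2, which blocks the entry of enveloped viruses, was at 3.04, 2.27 and 1.91 CPM in untreated and at 10.1, 8.45 and 8.78 CPM in Afa libraries, a log2FC of 1.92 ± 0.26 (adjusted p = 4.46e-06). SAMD9L was at 3.11, 4.77 and 1.59 CPM and 9.52, 12.7 and 11 CPM, a log2FC of 1.80 ± 0.30. Both groups were separate although the untreated SAMD9L libraries differed by about 3-fold among themselves. EPSTI1 went from 5.54, 5.22 and 2.55 CPM to 15.2, 13.8 and 15.4 CPM, a log2FC of 1.73 ± 0.21.

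GBP2 in MKN7 cells was at 7.03, 5.07 and 4.21 CPM in untreated and at 16.3, 15.1 and 12.3 CPM in Afa libraries, a log2FC of 1.42 ± 0.26. MX1 went from 4.18, 4.11 and 2.26 CPM to 12.3, 7.87 and 6.44 CPM, a log2FC of 1.33 ± 0.28. GBP1 went from 5.18, 4.3 and 2.62 CPM to 9.71, 8.05 and 9.69 CPM, a log2FC of 1.18 ± 0.17. In all 3 the lowest untreated library was replicate 3, and no groups overlapped. STAT2 was at 40.8, 38.9 and 34.8 CPM and 88.9, 81.2 and 82.6 CPM, a log2FC of 1.14 ± 0.10 (adjusted p = 1.05e-08). IRF1 had a log2FC of 0.15 ± 0.11 (adjusted p = 0.26, and 0.0211 with the replicate block), with 60.3, 49.8 and 55.4 CPM in untreated and 64.1, 55.6 and 64.2 CPM in Afa libraries. IRF7, at 3.94, 2.68 and 2.51 CPM and 5.53, 3.49 and 4.25 CPM, had a log2FC of 0.54 ± 0.22 (adjusted p = 0.0507, and 0.00092 with the block), and neither factor passed the test without the block. IFI6 (log2FC 1.16 ± 0.23), DHX58 (log2FC 1.14 ± 0.29) and CMPK2 (log2FC 1.11 ± 0.42), a mitochondrial nucleotide kinase below 1 CPM in these cells, were the remaining members called. The members that passed at less than 2-fold included PARP9 (0.76 ± 0.14), PARP14 (0.77 ± 0.15), SAMD9 (0.85 ± 0.17), MX2 (0.27 ± 0.07), IFI35 (0.51 ± 0.14), HERC6 (0.51 ± 0.08) and UBE2L6 (0.41 ± 0.09), by log2FC. BST2, below 1 CPM in each untreated library, had a log2FC of 0.88 ± 0.45 (adjusted p = 0.105, and 0.0239 with the block). IFIT5 was the member that passed as lower (log2FC -0.30 ± 0.09), and ISG15 did not pass (adjusted p = 0.0788, and 1.14e-05 with the block).

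In MKN1 cells afatinib for 24 h gave 5 of 35 members called higher (14.3%, against 3.17% of all genes) and 0 lower (1.02% of all genes). By adjusted p alone 16 were higher (45.7%, against 12.2% of all genes) and 0 lower (13.3% of all genes), with a median log2FC of 0.45 beside 0.005 over all genes. In edgeR's test 19 members in all had an unadjusted p under 0.05, and DESeq2 called 5 higher and 0 lower. By role, 2 of 3 RNA sensors, 2 of 4 GTPases, 2 of 4 PARP and SAMD9 genes and 1 of 3 transcription factors passed as higher. Fibroblast markers summed to 87.4 to 170 CPM in untreated and 320 to 327 CPM in Afa libraries, mostly LUM, and leukocyte markers, mostly CD14, to 6.15 to 6.88 CPM and 9.74 to 10.7 CPM, while the sums of the epithelial and mesenchymal markers overlapped between the groups. Their part in the result was not tested. The count of 5 rested on single libraries, since it was 10 without replicate 2 and 1 without replicate 3. GBP2 was at 19.7, 15.5 and 11.3 CPM in untreated and at 51.5, 46.6 and 61.4 CPM in Afa libraries, a log2FC of 1.78 ± 0.21 (adjusted p = 3.77e-07). SAMD9L was at 22.3, 15.2 and 16.5 CPM and 40.3, 32.4 and 49.3 CPM, a log2FC of 1.17 ± 0.24. EPSTI1 was at 2.37, 1.78 and 1.93 CPM and 4.25, 3.61 and 5.35 CPM, a log2FC of 1.12 ± 0.20. All 3 groups of Afa libraries lay above their untreated ones. IFI27 was at 2.31, 3.19 and 1.57 CPM and 5.12, 4.73 and 4.73 CPM, a log2FC of 1.04 ± 0.33. OAS1, the synthetase that activates RNase L, was called as well (log2FC 1.36 ± 0.33), from a mean of 0.359 ± 0.0901 CPM in untreated libraries. STAT2 was at 54.6, 42.4 and 41.7 CPM and 67.7, 50.6 and 73.4 CPM, where the ranges overlapped, and it passed with a log2FC of 0.47 ± 0.11. Members that passed at less than 2-fold included DHX58 (0.88 ± 0.19), IFIH1 (0.82 ± 0.17), IFI6 (0.79 ± 0.21), MX1 (0.74 ± 0.14), IFI35 (0.64 ± 0.20), BST2 (0.53 ± 0.18), HERC6 (0.45 ± 0.12) and PARP9 (0.44 ± 0.16), by log2FC. XAF1 stood just short of the fold limit with 1.00 ± 0.19. MX2, already above 100 CPM in untreated MKN1 cells, had a log2FC of 0.04 ± 0.07 (adjusted p = 0.747). IRF1 (adjusted p = 0.222, 0.0219 with the replicate block), IRF7 (adjusted p = 0.0682, 0.000871 with the block) and ISG15 (adjusted p = 0.206) did not pass.

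In Hs746T cells 0 members were called after afatinib at 24 h, as were 0% of all genes. edgeR's quasi-likelihood test gave 0 members at an unadjusted p below 0.05, DESeq2 also called 0, and the log2FC of the members ranged from -0.17 to 0.31 around a median of 0.01. GBP2 was at 24.5, 23.7 and 21.5 CPM in untreated and at 24.6, 22.9 and 23.5 CPM in Afa libraries, which overlapped fully. STAT2 was at 36.6, 36.6 and 38.5 CPM and 41.9, 34.2 and 26.4 CPM, with replicates 1 and 3 of the Afa group as the highest and the lowest library of all 6. SAMD9L was at 53.3, 46.1 and 42.3 CPM and 50.7, 43.2 and 36.7 CPM. By CPM scaled within each line, GBP2 and SAMD9L in untreated Hs746T cells lay above the untreated cells of each other line. That scaling is not a common scale across lines, so this order is only approximate. No test of these differences between lines is given here.

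**Figure D3:**
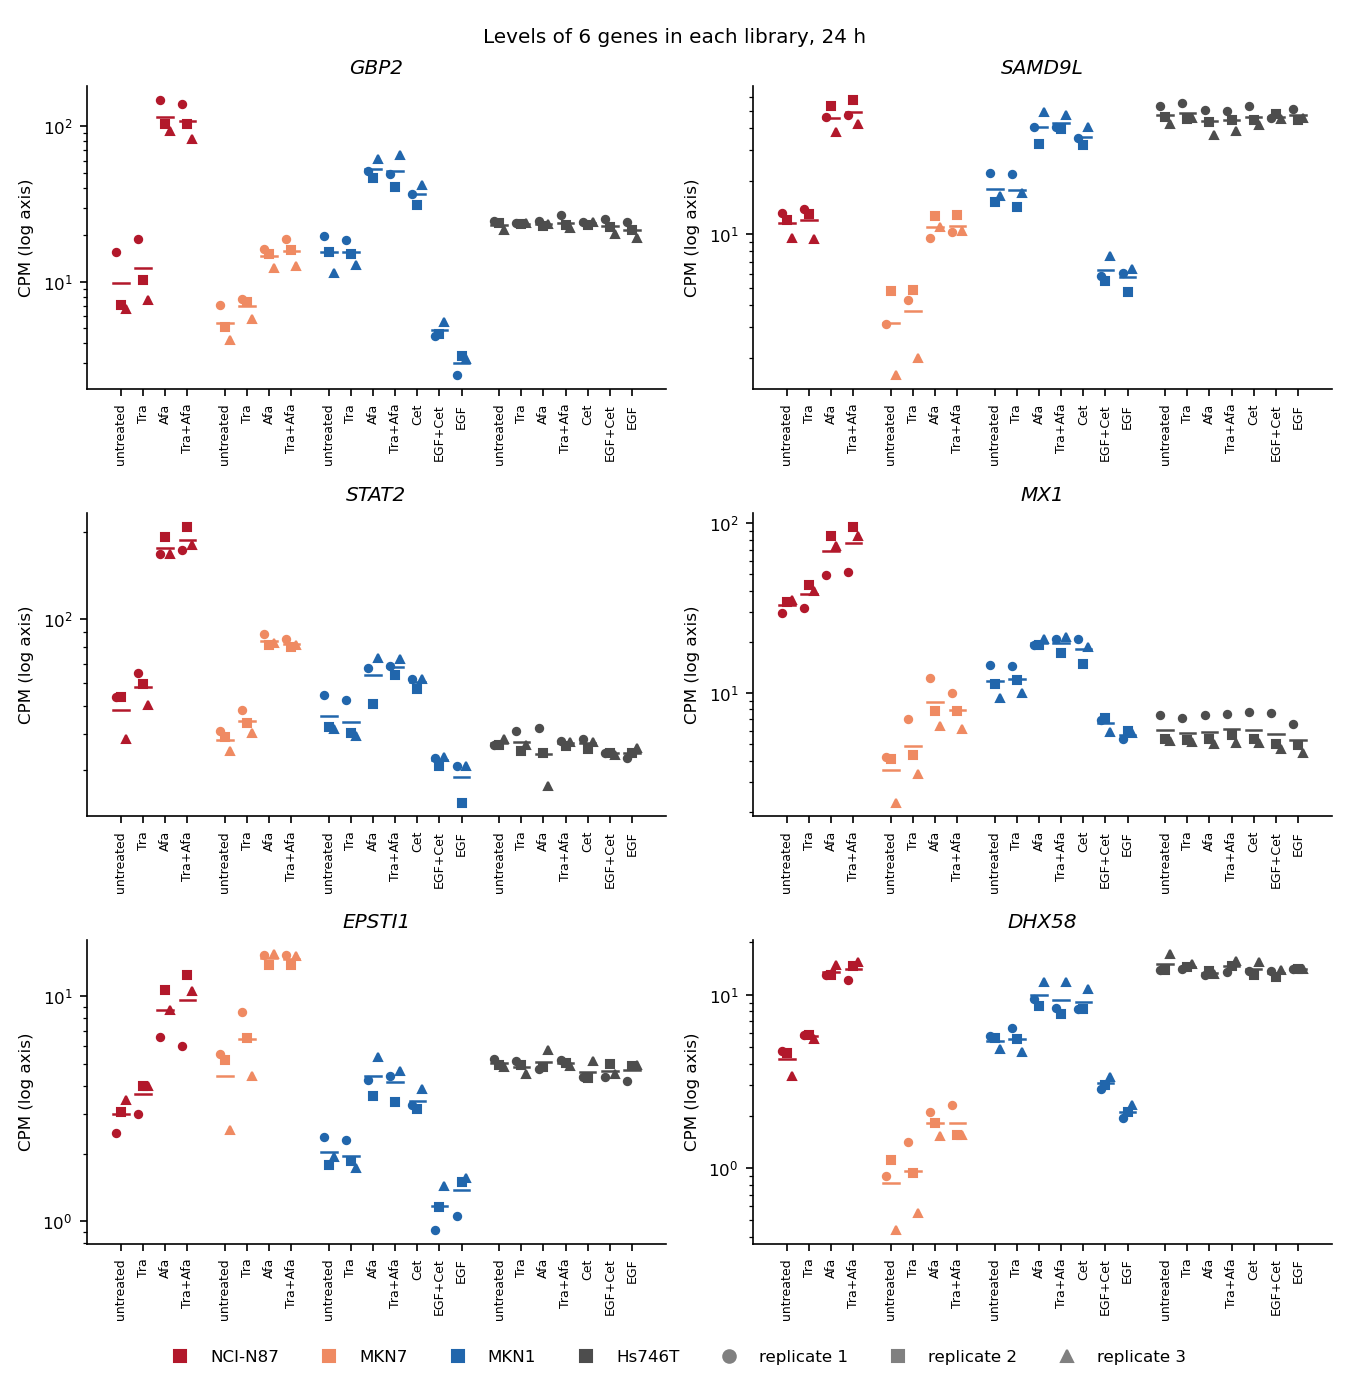
Levels of GBP2, SAMD9L, STAT2, MX1, EPSTI1 and DHX58 in each library at 24 h, in CPM on a log axis, with the symbol showing the replicate number and a line at the mean. Afa and Tra+Afa libraries mostly lie above untreated and Tra libraries in NCI-N87, MKN7 and, less far, MKN1 cells, EGF and EGF+Cet libraries mostly lie below them in MKN1 cells, and the Hs746T libraries stay level.

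The members that rose overlapped between the lines, which share no control libraries. Of the members called higher, 8 were common to NCI-N87 and MKN7 cells, 66.7% of the NCI-N87 and 80% of the MKN7 list, and these were DHX58, EPSTI1, GBP2, IFI6, IFITM2, MX1, SAMD9L and STAT2. Over all genes called higher, the shared ones were 25.6% of the NCI-N87 and 46.6% of the MKN7 list. EPSTI1, GBP2 and SAMD9L were called in MKN1 cells too, 60% of the MKN1 list, where 22.3% of all genes on the MKN1 list were called higher in the other two lines as well. By adjusted p alone, 10 members rose in all of NCI-N87, MKN7 and MKN1 cells, namely DHX58, EPSTI1, GBP2, HERC6, IFI35, IFI6, MX1, PARP9, SAMD9L and STAT2. Of the 16 members that passed as higher in MKN1 cells, 15 also did in NCI-N87 cells (93.8%, against 59.6% over all genes that passed as higher in MKN1 cells).

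The difference of the afatinib effect between lines was tested with interaction contrasts in a fit of the libraries of all lines. Against Hs746T cells, the effect at 24 h was larger for 12 members in NCI-N87 cells (10.5% of all genes in this direction and 19.4% in either). It was larger for 8 in MKN7 cells (4.73% and 7.02%) and for 5 in MKN1 cells (0.893% and 1.34%). All members called went in this direction. The count for MKN1 cells was 2 without replicate 2 and 0 without replicate 3. For GBP2 the effect in NCI-N87 cells exceeded that in Hs746T cells by 3.55 ± 0.38 on the log2 scale, that in MKN7 cells by 1.39 ± 0.38 and that in MKN1 cells by 1.76 ± 0.37. Between the lines that changed, the share of members that differed was in no pair above that of all genes. Of 35 members, 4 differed between MKN1 and NCI-N87 cells (13.4% of all genes). The effect in MKN1 cells was smaller on GBP2, STAT2 and XAF1 and larger on OAS1. A single member differed between MKN1 and MKN7 cells, IFITM2, with the smaller effect in MKN1 cells (3.6% of all genes), and it was lost without replicate 3. A single member differed between MKN7 and NCI-N87 cells, GBP2, which rose less in MKN7 cells (9.64% of all genes), and the count was 2 with the replicate number as a block and 2 without replicate 1.

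**Figure D4:**
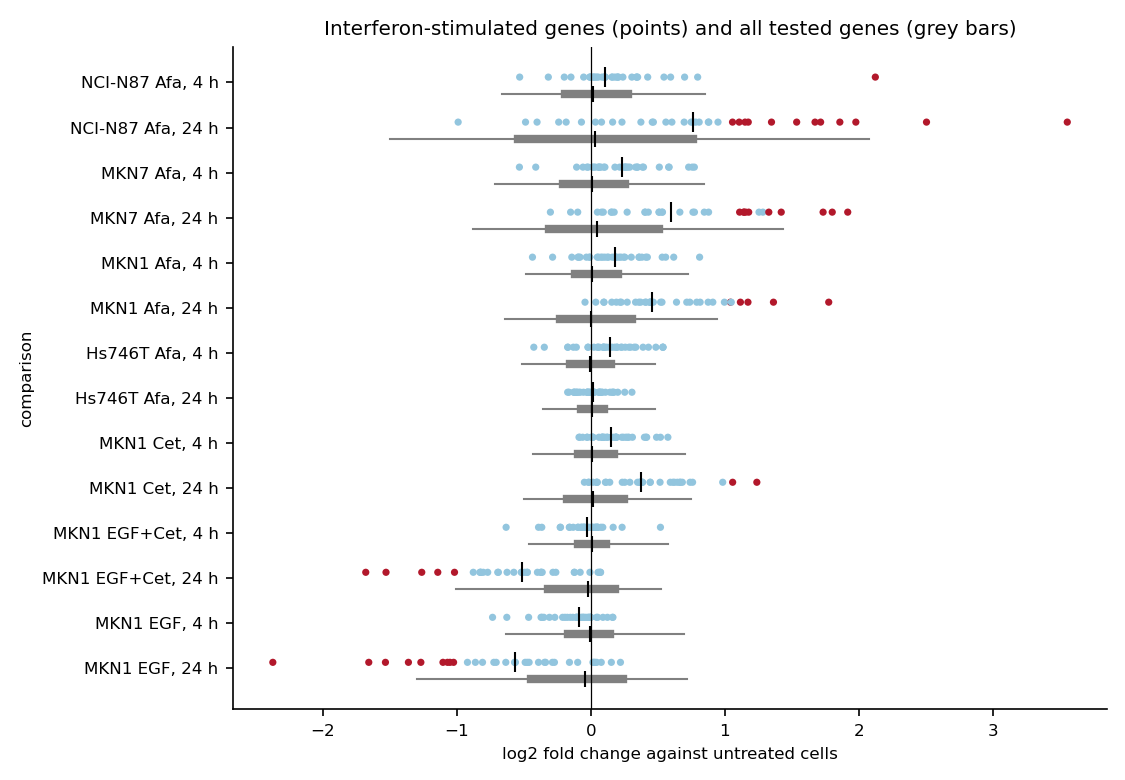
Log2FC of the tested members against untreated cells (points, red where past both criteria, tick at their median) above the spread of all tested genes (thin grey bar from the 5th to the 95th percentile, thick bar from the 25th to the 75th, tick at the median), for each comparison. The members' median is 0.764 for Afa at 24 h in NCI-N87 cells and -0.563 for EGF at 24 h in MKN1 cells, and it is close to 0 in Hs746T cells at 24 h.

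Trastuzumab alone for 24 h gave 0 members called in NCI-N87, MKN7, MKN1 and Hs746T cells, as it gave 0% of all genes in each line. edgeR's test listed 1, 4, 1 and 0 members at an unadjusted p below 0.05, and DESeq2 called 0 in each. The combination Tra+Afa changed 15 members in NCI-N87 cells against untreated cells (31.6% of all genes, in either direction), 14 higher and OASL lower with a log2FC of -1.12 ± 0.12. It raised 8 members in MKN7 cells (10.6% of all genes were called higher and 13.9% in either direction) and 4 in MKN1 cells (3.13% and 4.24%), the latter 2 without replicate 3. GBP2 was at 139, 104 and 83.5 CPM in the Tra+Afa libraries of NCI-N87 cells, close to its levels under Afa alone. Against Tra alone, Tra+Afa called 11 of 35 members in NCI-N87 cells (28.2% of all genes, in either direction as for the next lines). It called 4 of 34 in MKN7 (9.7%) and 6 of 35 in MKN1 cells (4.22%, and 2 members without replicate 3). The shares of members in NCI-N87 and MKN7 cells were near those of all genes. OASL was the only member that was lower. In NCI-N87 cells 10 members were higher, where 17.4% of all genes were called higher and 10.8% lower. In MKN7 cells 7 were called when scaled by library size alone. Against Afa alone, Tra+Afa gave 0 members and 0% of all genes in NCI-N87, MKN7, MKN1 and Hs746T cells, 0 members at an unadjusted p below 0.05 in each, and 0 by DESeq2.

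EGF for 24 h lowered members in MKN1 cells. Of 35 members, 9 were called lower (25.7%, against 6.24% of all genes) and 0 higher (2.11% of all genes), and by adjusted p alone 18 were lower (51.4%, against 18.5% of all genes) and 1 higher (17.3% of all genes). The median log2FC was -0.56, beside -0.045 over all genes, and scaling by library size alone moved the latter to -0.24. In edgeR's test 21 members in all had an unadjusted p under 0.05, and DESeq2 called 0 higher and 9 lower. By role, 3 of 4 GTPases, 3 of 4 PARP and SAMD9 genes, 2 of 3 RNA sensors and 1 of 3 transcription factors passed as lower. Fibroblast markers summed to 38.7 to 40.8 CPM in EGF libraries, against 87.4 to 170 CPM in untreated ones, leukocyte markers to 4.52 to 5.57 CPM against 6.15 to 6.88 CPM, and mesenchymal markers to 2465 to 3218 CPM against 1830 to 2156 CPM, and their part in the result was not tested. Without replicate 1, 4 members were called lower. The EGF, Cet, EGF+Cet and Afa libraries of MKN1 cells are compared with the same 3 untreated libraries, so their values are set side by side and are not independent of one another.

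GBP2 was at 2.49, 3.32 and 3.19 CPM in the EGF libraries, against 19.7, 15.5 and 11.3 CPM in untreated ones, a log2FC of -2.37 ± 0.23 (adjusted p = 2.03e-09). It was at 4.48, 4.58 and 5.5 CPM in EGF+Cet and at 36.8, 31.1 and 42 CPM in Cet libraries, so that the treatments were ordered from EGF over EGF+Cet, untreated and Cet to Afa without overlap between neighbouring groups. SAMD9L fell to 6.06, 4.7 and 6.36 CPM with EGF, a log2FC of -1.66 ± 0.26, and XAF1 from 2.7, 2.25 and 1.87 CPM to 0.726, 0.865 and 0.773 CPM, a log2FC of -1.53 ± 0.22. The RNA sensor genes DHX58, from 5.78, 5.62 and 4.87 CPM to 1.93, 2.1 and 2.3 CPM, and IFIH1, from 15.6, 13.2 and 12 CPM to 6.6, 6.1 and 6.78 CPM, fell with a log2FC of -1.36 ± 0.20 and -1.07 ± 0.18. GBP1, from 12.7, 7.87 and 5.48 CPM to 3.98, 3.95 and 2.94 CPM, fell by a log2FC of -1.27 ± 0.27. Every EGF library lay below every untreated one in these genes. IFI44 (-1.10 ± 0.31), MX1 (-1.05 ± 0.14) and the antiviral enzyme RSAD2, viperin (-1.02 ± 0.41), were the other members called lower, with the log2FC given in parentheses.

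STAT2 was at 30.9, 23.1 and 31 CPM with EGF, below the 54.6, 42.4 and 41.7 CPM of untreated cells, and it passed as lower with a log2FC of -0.71 ± 0.11. IRF7 was at 7.26, 9.24 and 8.97 CPM in untreated and 5.79, 7.79 and 5.87 CPM in EGF libraries, a log2FC of -0.39 ± 0.17 that did not pass (adjusted p = 0.0685, and 0.00158 with the replicate block). IRF1, at 66.7, 58.7 and 51.9 CPM and 63.8, 63.1 and 52.5 CPM, had a log2FC of 0.02 ± 0.11 (adjusted p = 0.927), which was -0.19 when scaled by library size alone. The member that passed as higher was MX2, at 116, 108 and 106 CPM and 130, 140 and 116 CPM, with a log2FC of 0.22 ± 0.07. BST2 (-0.49 ± 0.19), IFITM2 (-0.81 ± 0.20), PARP9 (-0.72 ± 0.16) and HERC6 (-0.47 ± 0.12) passed as lower at less than 2-fold. ISG15 had a log2FC of -0.29 ± 0.15 (adjusted p = 0.152).

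EGF+Cet for 24 h called 5 members lower in MKN1 cells (2.84% of all genes) and 0 higher (0.54%), and by adjusted p alone 14 were lower (9.43% of all genes) and 0 higher (9.17%). An unadjusted p below 0.05 was reached by 20 members in edgeR's test, and DESeq2 also called 5 lower and 0 higher. The members called were GBP2 (-1.68 ± 0.22), SAMD9L (-1.53 ± 0.25), XAF1 (-1.26 ± 0.21), GBP1 (-1.14 ± 0.26) and IFI44 (-1.02 ± 0.31), by log2FC, and without replicate 1 there were 2. Against EGF alone, EGF+Cet gave 0 members (0.156% of all genes), 3 at an unadjusted p below 0.05 in edgeR's test and 0 by DESeq2. Cet alone called 2 members higher (1% of all genes) and 0 lower (0.328%), GBP2 with a log2FC of 1.24 ± 0.21 and OAS1 with 1.06 ± 0.34. By adjusted p alone 10 members were higher (4.92% of all genes) and 0 lower (5.91%) with Cet, SAMD9L among them at 0.98 ± 0.24. With Cet 13 members had an unadjusted p below 0.05 in edgeR's test, and DESeq2 called 2 higher and 0 lower. The count of 2 was 1 without replicate 1 and 0 without replicate 3, and it was 1 in a fit of only the compared groups. In Hs746T cells EGF, Cet and EGF+Cet for 24 h gave 0 members and 0% of all genes each, with 0 members at an unadjusted p below 0.05 in edgeR's test and 0 by DESeq2.

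After 4 h few members had changed. Afatinib in NCI-N87 cells called 1 member (3.24% of all genes in either direction), GBP2, which was at 11.1, 6.23 and 6.28 CPM in untreated and at 47.4, 29.2 and 26.2 CPM in Afa libraries, a log2FC of 2.12 ± 0.41. By adjusted p alone 5 members were higher (9.06% of all genes), STAT2 among them at 0.70 ± 0.14 and DHX58 at 0.80 ± 0.17, and IFIT5 was lower (9.1% of all genes). In MKN7 cells 0 were called (3.4% of all genes), 8 had an unadjusted p below 0.05, and by adjusted p alone 5 were higher (10.1%), among them EPSTI1 at 0.73 ± 0.23 and STAT2 at 0.58 ± 0.10. The member that was lower in MKN7 cells at 4 h (12.1% of all genes) was GBP1, at -0.53 ± 0.18, which was higher at 24 h. In MKN1 cells 0 were called (0.681% of all genes), 6 had an unadjusted p below 0.05, and by adjusted p alone USP18 and XAF1 were higher (1.27%) and 0 lower (2.41%). In Hs746T cells 0 were called with afatinib at 4 h (0% of all genes), and 5 had an unadjusted p below 0.05. EGF for 4 h called 0 members in MKN1 cells (1.48% of all genes), with 4 at an unadjusted p below 0.05. DESeq2 also called 0 in each of these comparisons with 0, and p-values are from edgeR's test.

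The change of the afatinib effect from 4 h to 24 h was larger at 24 h by both criteria for 8 members in NCI-N87 cells of 35 (8.39% of all genes). It was so for 5 members in MKN7 (3.13%) and 1 in MKN1 cells (0.409%), the latter GBP2 with a difference of 1.55 ± 0.31 on the log2 scale. The NCI-N87 count was 4 without replicate 2 or replicate 3, the MKN7 count 2 without replicate 1 or replicate 2 and 3 without replicate 3, and the MKN1 count 0 without replicate 1 and 3 with the replicate block. The EGF effect in MKN1 cells was lower at 24 h than at 4 h for 3 members (2.31% of all genes), GBP2, SAMD9L and GBP1, a count of 5 with the replicate block, 6 without replicate 3 and 0 without replicate 1.

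Some members moved in untreated cells as well. In untreated MKN1 cells 4 members were higher at 24 h than at 4 h (6.26% of all genes were called higher and 8.06% in either direction), GBP2 (1.92 ± 0.23), XAF1 (1.95 ± 0.23), SAMD9L (1.46 ± 0.26) and DHX58 (1.16 ± 0.20), by log2FC. GBP2 was at 3.47, 3.97 and 4.88 CPM at 4 h and at 19.7, 15.5 and 11.3 CPM at 24 h. With EGF it was at 3.08, 3.16 and 4.47 CPM and 2.49, 3.32 and 3.19 CPM, so the EGF libraries of both times overlapped each other while the untreated ones rose. SAMD9L showed the same arrangement, with 6.84, 4.62 and 8.18 CPM at 4 h and 22.3, 15.2 and 16.5 CPM at 24 h in untreated cells, and 6.67, 4.33 and 7.35 CPM and 6.06, 4.7 and 6.36 CPM with EGF. In untreated MKN7 cells 1 member was higher at 24 h, SAMD9L (1.3% of all genes were called higher and 1.76% in either direction), and it was lost without replicate 1 or replicate 2. In untreated NCI-N87 cells 0 members changed (0.0472% of all genes) and in Hs746T cells 0 (0.129%), with 8 and 3 members at an unadjusted p below 0.05 in edgeR's test and 0 each by DESeq2.

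Other genes of the pathway, from a list of interferons, receptors, kinases, sensors and negative regulators, moved less uniformly. IFNB1 reached at most 9 counts in a library, and IFNA1 was between 2.13 and 6.86 CPM in NCI-N87 and at most 0.552 CPM in the other lines. IFNA1 passed as higher with Afa in NCI-N87 cells (0.90 ± 0.22). In MKN1 cells 1 of the 10 listed interferons was tested. It was called higher with EGF at 24 h (log2FC 1.44, where 2.11% of all genes were called higher), opposite to the members called. TLR3, the endosomal receptor for double-stranded RNA, was called higher with Afa in NCI-N87 (log2FC 1.71 ± 0.13), MKN7 (1.63 ± 0.22) and MKN1 cells (1.38 ± 0.21) and lower with EGF (-1.92 ± 0.25). Its level in NCI-N87 cells went from 10.2, 9.59 and 10.7 CPM to 32.3, 33.8 and 33.6 CPM. IL10RB, a shared receptor chain of type III interferon, passed as higher with Afa in the same lines (0.95 ± 0.08, 0.49 ± 0.08 and 0.52 ± 0.11) and as lower with EGF (-0.44 ± 0.11). The cytosolic DNA sensor cGAS, listed as MB21D1, moved opposite to the members in NCI-N87 cells, from 46.4, 56 and 48.6 CPM to 12.8, 14.7 and 10.4 CPM with Afa (-1.99 ± 0.13). It also passed as lower with Afa in MKN7 and MKN1 cells and as higher with EGF.

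In the induction pathway as a whole, 2 of 13 tested genes passed as higher and 5 as lower with Afa in NCI-N87 cells, where 31.5% and 31% of all genes did. The counts were 2 and 3 of 13 in MKN7 cells (26.6% and 25% of all genes) and 1 and 1 of 12 in MKN1 cells (12.2% and 13.3%). Among the receptors, 2 of 6 passed as higher and 3 as lower in NCI-N87 cells, 1 and 2 in MKN7 cells, and 1 and 1 in MKN1 cells, and among the negative regulators 3 of 8 and 1, 4 and 3, and 1 and 1, beside the same shares of all genes. In NCI-N87 cells these regulators included genes on both sides, with the phosphatase PTPN6 at a log2FC of 1.05 ± 0.10 and the phosphatase PTPN1 at -1.08 ± 0.07. With EGF in MKN1 cells, 4 of the 8 negative regulators passed as higher, SOCS3 among them at 0.74 ± 0.17, and 3 as lower, where 17.3% and 18.5% of all genes did.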

How the data were processed

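RNA of 4 gastric cancer cell lines was sequenced in 132 libraries, which were directional, made from poly(A) mRNA and read from both ends. The authors deposited raw counts per Ensembl gene, 1 table per library and without pooling. Trim Galore, STAR and hg38 are named in the submitters' processing notes, while the counter, its strand setting and the annotation release are not given in the sources used here. Gene names and positions came from GENCODE release 29 (GRCh38), in which 8404 of the 65217 identifiers, holding 0.0422% of the counts, had no entry. Libraries held 25832557 to 69434151 counts, and 3 counts correspond to 0.0432 to 0.116 per 1e+06 of a library's unscaled total.

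Counts were fitted per cell line, with all treatments and both times in 1 model, in edgeR 4.0.16 (R 4.3.3, limma 3.58.1) with TMM scaling, filterByExpr (at least 10 counts in enough libraries, 15 in total) and the quasi-likelihood test. Comparisons between lines used 1 fit of all libraries. P-values were adjusted by Benjamini-Hochberg over all genes tested, 18483 to 22832 in a fit, and a gene was called at an adjusted p below 0.05 with a log2FC beyond 1 in either direction. The fit was tested on simulated data. Alternatives were DESeq2 1.42.0, each replicate left out, the replicate number as a block, the adjusted p alone, a fit of only the compared groups, library sizes without TMM, and either no filter or 10 counts in each library. Samples with the same replicate number deviated together in 40 of 40 comparisons within lines (lowest r of a pair 0.104, highest 0.707), taken from the numbers in the labels. Of the pairs of replicate libraries 0 were identical, and counts differed by more than sampling noise in each (chi-square per degree of freedom at least 6.355).

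The members and lists were chosen with earlier results of these data known. Values in every library were given for members called with the largest log2FC (at most 6 in each direction) and at least 1 CPM, and for STAT2, IRF1 and IRF7, and further members were chosen after their values were seen. CPM within a line used that line's scaling.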

Additional observations from a re-analysis of the deposited data

Results flagged for a closer look

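The following differences between lines or times were themselves tested, as interaction contrasts in edgeR's quasi-likelihood test, and passed both criteria. Values are differences of 2 effects on the log2 scale.

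The effect of afatinib at 24 h was larger in NCI-N87 than in Hs746T cells by 3.55 for GBP2, 2.12 for SAMD9L, 2.01 for STAT2, 1.87 for DHX58, 1.55 for EPSTI1 and 1.12 for MX1. It was larger in MKN7 than in Hs746T cells by 1.92 for SAMD9L, 1.72 for EPSTI1, 1.39 for GBP2, 1.36 for MX1, 1.31 for DHX58 and 1.26 for STAT2. In MKN1 cells it exceeded that in Hs746T cells by 1.76 for GBP2, 1.30 for SAMD9L, 1.11 for EPSTI1 and 1.06 for DHX58. MKN1 minus NCI-N87 gave -1.80 for GBP2, -1.52 for XAF1, -1.41 for STAT2 and 1.42 for OAS1. MKN1 minus MKN7 gave -1.46 for IFITM2, and MKN7 minus NCI-N87 gave -2.16 for GBP2. In the pairs of lines without Hs746T cells, the share of members called was not above that of all genes.

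The effect of afatinib was larger at 24 h than at 4 h in NCI-N87 cells by 1.55 for SAMD9L, 1.43 for GBP2 and 1.16 for STAT2, in MKN7 cells by 1.51 for SAMD9L, and in MKN1 cells by 1.55 for GBP2. The effect of EGF in MKN1 cells, 24 h minus 4 h, was -2.16 for GBP2, -1.55 for SAMD9L and -1.39 for GBP1.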

How the results depend on the processing

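Of 554 recomputed counts of called members, 484 stayed within 1.5 times the reported count, among them 56 of 56 with DESeq2. The 484 include counts that were 0 both times, mostly where few or no genes at all were called. Of 1946 recomputed values of single members, 1746 kept their direction and side of the threshold and 17 changed sign. The causes were not tested. With scaling by library size alone, which moved the median of all genes to 0.292 for afatinib at 24 h in NCI-N87 cells, members called were 19 (NCI-N87 Afa higher), 7 (MKN7 Tra+Afa against Tra) and 7 (MKN1 untreated, 24 h against 4 h), and the log2FC of USP18, ISG20 and OAS1 in NCI-N87 cells and IRF1 with EGF became 0.018, 0.0715, 0.19 and -0.19. Without a filter, 1 was called with Cet and 3 for the MKN7 time difference, and EPSTI1 in Hs746T cells was at -0.0014. With at least 10 counts in every library, 1 was called with Cet and 11 between untreated NCI-N87 and Hs746T cells, and OAS1 in NCI-N87 cells was at 0.0401. With only the compared groups, counts were 1 (Cet), 3 and 0 (afatinib, 24 h minus 4 h, in MKN7 and MKN1 cells), 3 (MKN1 minus Hs746T), 2 (MKN7 minus NCI-N87) and 0 (MKN7 untreated, 24 h against 4 h). With the replicate block, counts were 3 and 5 (MKN1, 24 h minus 4 h, for Afa and EGF), 2 (MKN7 minus NCI-N87) and 2 (MKN7 untreated, 24 h against 4 h), and it changed no other count by over 1.5 times. Of 187 values of single members, 20 passed the adjusted p with the block but not without it and 0 the reverse. Beside those given in the report these were RSAD2 with Afa in MKN7 cells, PARP14 with EGF, GBP2 for EGF+Cet against EGF, GBP2 in MKN7 and SAMD9L and STAT2 (EGF) in MKN1 cells for 24 h minus 4 h, STAT2 and MX1 for MKN1 minus Hs746T, and OASL and MX2 for MKN1 or MKN7 minus NCI-N87 cells. No block was possible between untreated lines, whose cultures share only a number.

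Leaving out 1 replicate gave ranges of 0 to 1 (NCI-N87 Afa lower), 1 to 10 (MKN1 Afa), 2 to 6 (MKN1 Tra+Afa), 2 to 5 (the same against Tra), 4 to 9 (EGF), 2 to 6 (EGF+Cet), 0 to 2 (Cet), 4 to 12, 2 to 3 and 0 to 1 (Afa, 24 h minus 4 h, in NCI-N87, MKN7 and MKN1 cells), 0 to 6 (EGF, 24 h minus 4 h), 0 to 6 (MKN1 minus Hs746T), 0 to 1 (MKN1 minus MKN7), 1 to 2 (MKN7 minus NCI-N87) and 0 to 1 (MKN7 untreated, 24 h against 4 h). Sign changes occurred for LGALS3BP (range -0.03 to 0.14, negative without replicate 3), CMPK2 (-0.0728 to 0.44, negative without replicate 3) and OAS1 (-0.15 to 0.19, positive without replicate 1) in NCI-N87 cells, for GBP2 (-0.0202 to 0.0631), STAT2 (-0.32 to 0.0559) and EPSTI1 (-0.0969 to 0.0948) in Hs746T cells and STAT2 in MKN1 cells (24 h minus 4 h, -0.0861 to 0.17) without replicate 3, for IRF1 with EGF (-0.0245 to 0.0638) without replicate 2, for IFI44L between untreated MKN1 and MKN7 cells (-1.95 to 0.10) without replicate 1, and for IFI27 between untreated NCI-N87 and Hs746T cells (-0.16 to 0.57) without replicate 2 or 3.

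By adjusted p alone, counts were 26 higher and 3 lower, 17 and 1, and 16 and 0 (Afa at 24 h in NCI-N87, MKN7 and MKN1 cells), 6, 6 and 2 (the same at 4 h), 28, 18 and 13 (Tra+Afa), 24, 18 and 13 (against Tra), 1 and 18 (EGF), 14 (EGF+Cet), 10 (Cet), 16 and 8 (Afa, 24 h minus 4 h, in NCI-N87 and MKN7 cells), 6 (EGF, 24 h minus 4 h), 10, 4 and 5 (MKN1 minus NCI-N87, MKN1 minus MKN7 and MKN7 minus NCI-N87), 14, 5 and 1 (untreated MKN1, MKN7 and NCI-N87, 24 h against 4 h) and 31, 32 and 29 (untreated MKN1 against Hs746T, MKN7 against NCI-N87 and NCI-N87 against Hs746T). Depth limits members near 1 CPM, such as OAS1 in MKN1 and CMPK2 in MKN7 cells, and 8 members listed at 0 could not be judged.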
